A study of Rattus norvegicus with 16 samples.

Results

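The transcripts described here encode 6 repressors of the circadian clock, Nr1d1, Nr1d2, Per2, Per3, Cry1 and Cry2, measured in cultured rat pancreatic islets at 4 glucose concentrations. They are all the probe sets to which the array annotation gives one of these gene symbols and no other, 11 of 31042 probe sets without controls. Nr1d2 has 3 of these probe sets, Per2, Per3 and Cry2 have 2 each, and Nr1d1 and Cry1 have 1 each. The genes were selected on their signal over the 4 concentrations in these same arrays, so the levels and differences between concentrations below are a description, with no test.

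The circadian clock is a loop of transcription in which CLOCK or NPAS2, bound to BMAL1, switches on the Per, Cry and Nr1d genes. PER and CRY proteins then hold that activator back, and the nuclear receptors NR1D1 and NR1D2 (REV-ERBα and REV-ERBβ) silence the Bmal1 gene at the sites where ROR receptors activate it. In islets the clock is known for timing insulin secretion over the day, and its activator also drives output factors such as Dbp, Tef and Hlf.

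The islets came from male Wistar rats weighing 180 to 200 g. All groups share a preculture of 1 week in RPMI medium that held no serum, 5 g/l albumin (BSA) and glucose at 10 mmol/l. Lots of 1000 islets then spent 18 h at 1 of the 4 concentrations, which were 2, 5, 10 and 30 mmol/l. Each concentration has 4 whole-transcriptome oligonucleotide arrays (Affymetrix Rat230_2), and the 4 experiments used different islet preparations. The hour of day at harvest is not given in the sources used here. The labels give no genetic change and no drug for any group.

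Each value is a signal as deposited, scaled so that every array has nearly the same trimmed mean (150.04 to 150.05), and the number of arrays limits the precision. Islet hormones were at the top of the scale, with Ins1 between 5976 and 11424 and Ins2 between 4783 and 9348 over the 16 arrays, while none of the 6 acinar cell markers was bright enough to be tested (summed signal 56.1 to 117.6). The brighter 60% of probe sets by mean log2 signal, 18625 of them, entered the tests. Of the 11 probe sets of the repressors 9 passed this level, and all 6 genes kept at least 1. A gene is represented by its probe set with the highest mean, and its others are given beside it.

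The promoter windows of Per2 and Nr1d1 are shown because they hold letters that the clock's activator or its PAR bZIP output factors bind, in genes whose groups of arrays were apart at 2 or more of the 3 glucose steps. The windows are from RefSeq (rat build GRCr8), run from 250 bases before to 50 bases after an annotated start, and read 5′ to 3′ in the direction of the gene. Per2 lies on the minus strand at chr9:99496944-99497243. Nr1d1 has 2 annotated starts on the minus strand, the first at chr10:84231763-84232062 and the second at chr10:84229405-84229704. Capitals mark every match to the motifs searched.
Per2: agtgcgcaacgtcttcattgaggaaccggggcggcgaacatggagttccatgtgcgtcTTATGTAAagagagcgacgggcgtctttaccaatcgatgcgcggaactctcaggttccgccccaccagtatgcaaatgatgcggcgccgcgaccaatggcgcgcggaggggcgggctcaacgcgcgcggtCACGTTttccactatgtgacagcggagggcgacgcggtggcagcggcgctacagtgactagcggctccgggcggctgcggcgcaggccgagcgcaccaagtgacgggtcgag
Nr1d1 first start: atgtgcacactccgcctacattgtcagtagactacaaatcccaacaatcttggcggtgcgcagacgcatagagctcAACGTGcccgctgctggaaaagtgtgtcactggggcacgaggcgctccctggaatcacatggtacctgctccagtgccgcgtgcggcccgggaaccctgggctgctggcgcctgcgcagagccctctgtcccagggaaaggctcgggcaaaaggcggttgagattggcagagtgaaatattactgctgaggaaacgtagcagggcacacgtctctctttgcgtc
Nr1d1 second start: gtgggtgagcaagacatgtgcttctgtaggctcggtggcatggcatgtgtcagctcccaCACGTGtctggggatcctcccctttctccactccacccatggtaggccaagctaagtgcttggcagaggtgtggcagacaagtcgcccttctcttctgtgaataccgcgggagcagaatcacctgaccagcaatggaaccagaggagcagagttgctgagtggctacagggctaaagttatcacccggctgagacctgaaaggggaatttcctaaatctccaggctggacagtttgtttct

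The motifs, searched on both strands, were the E-box CACGTG and its variant CACGTT, at which CLOCK and BMAL1 bind, the D-box TTATGTAA or TTACGTAA of DBP, TEF, HLF and NFIL3, the NR1D and ROR sites TAGGTCA and TGGGTCA, and the cAMP response element TGACGTCA. None of these matches overlapped another in the windows shown. The Per2 window holds TTATGTAA 192 bases before the start and CACGTT 62 bases before it. The first Nr1d1 window holds CACGTT on the other strand, read as AACGTG, 174 bases before the start, and the second holds CACGTG 191 bases before its start. Among 33469 rat windows of this length CACGTG occurred in 6.42%, CACGTT in 4.83% and TTATGTAA in 0.893%. TTACGTAA occurred in 0.12%, TAGGTCA in 2.63%, TGGGTCA in 4.09% and TGACGTCA in 1.83%. Of the other members, the Cry2 window holds CACGTT on the other strand 212 bases before the start, and the windows of Nr1d2 and Per3 hold no match to these letters. Of the 6 members 5 had a window. A match describes the letters alone, since nothing in these arrays measures binding.

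The Nr1d receptors had the largest differences of the 6, with folds of 3.95 and 3.81 between 2 and 30 mmol/l. For Nr1d1 (1370816_at) the signals at 2 mmol/l were 237.9, 331.8, 133.4 and 183.6 in replicates 1 to 4, and at 5 mmol/l they were 92.9, 101.4, 116.2 and 122.9. At 10 mmol/l Nr1d1 stood at 58.6, 61.6, 88.0 and 76.8, and at 30 mmol/l at 52.5, 60.3, 45.8 and 54.8. Every array at 2 mmol/l was above every array at 5 mmol/l, and every array at 5 above every array at 10 mmol/l, whereas the groups at 10 and 30 mmol/l overlapped. The mean signal was 222 ± 84.9 at 2 mmol/l, 108 ± 13.7 at 5, 71.3 ± 13.7 at 10 and 53.4 ± 6.0 at 30 mmol/l (SD, n = 4). On the log2 scale the difference of Nr1d1 between 30 and 2 mmol/l was -1.98 ± 0.22 (SE). Each SE of a difference given here is limma's moderated SE. The first step, from 2 to 5 mmol/l, held 48.5% of that difference, the second 31.1% and the third 20.4%. This order of the means did not hold within every replicate. The first step was -1.36 and -1.71 in replicates 1 and 2, but -0.20 and -0.58 in replicates 3 and 4. In replicate 3 the largest step was from 10 to 30 mmol/l (-0.94), and in replicate 4 from 5 to 10 mmol/l (-0.68).

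The replicates at 2 mmol/l differed widely for Nr1d1, and the fold between 2 and 30 mmol/l ran from 2.91 in replicate 3 to 5.50 in replicate 2. The ratio of 3′ to 5′ beta-actin control signals, a measure of RNA and labelling quality, was also lowest at 2 mmol/l, between 1.58 and 1.89, against 1.93 to 2.24 in the 12 other arrays. The same ratio for GAPDH did not set 2 mmol/l apart, with means of 0.864, 0.825, 0.798 and 0.898 at 2, 5, 10 and 30 mmol/l and ranges that overlapped. The part of the beta-actin ratio in the Nr1d1 step between 2 and 5 mmol/l was not tested. The same holds for every other difference from 2 mmol/l given here, in any gene. The Thra gene, which overlaps the end of Nr1d1 on the opposite strand in the RefSeq annotation, had signals of 101 ± 8.0, 120 ± 8.12, 111 ± 39.5 and 79.3 ± 17.9 (SD, n = 4) at 2, 5, 10 and 30 mmol/l (1367726_at). Thra, picked for its position, was not called different between 30 and 2 mmol/l (log2 difference -0.37 ± 0.21 SE, adjusted p = 0.175, limma).

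Nr1d2 (1390430_at) was nearly as high at 5 as at 2 mmol/l and lower at 10 and 30 mmol/l. Its signals at 2 mmol/l were 1657.1, 1994.1, 1832.7 and 1894.1 in replicates 1 to 4, and at 5 mmol/l 1487.4, 1830.4, 1760.9 and 1667.5. At 10 mmol/l they were 839.9, 784.4, 844.1 and 958.4, and at 30 mmol/l 480.2, 512.7, 434.0 and 508.7. The groups at 2 and 5 mmol/l overlapped, and those at 5, 10 and 30 mmol/l were fully apart. The means were 1845 ± 142, 1687 ± 149, 856.7 ± 73.1 and 483.9 ± 36.3 (SD, n = 4) in order of concentration. Between 30 and 2 mmol/l Nr1d2 differed by -1.93 ± 0.086 (SE) on the log2 scale, with 6.75% of it in the first step, 50.6% in the second and 42.7% in the third. By their group means Nr1d1 and Nr1d2 had differences of nearly the same size between the extremes, with different shares in the steps. For Nr1d1 these shares varied between replicates.

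The other probe sets of Nr1d2 were also lower at 10 and 30 mmol/l. For 1370541_at the means were 1330 ± 51.9, 1054 ± 159, 438.8 ± 30.7 and 308.9 ± 38.1 (SD, n = 4), a log2 difference of -2.11 ± 0.10 (SE) between 30 and 2 mmol/l. For 1370540_at they were 345.3 ± 51.2, 329.9 ± 80.7, 167.6 ± 45.0 and 98.0 ± 21.7, a log2 difference of -1.83 ± 0.20. The 3 probe sets put most of the difference after 5 mmol/l. The step from 5 to 10 mmol/l was -0.98, -1.25 and -0.99 on the log2 scale for 1390430_at, 1370541_at and 1370540_at, and the step before it -0.13, -0.35 and -0.08.

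**Figure D1:**
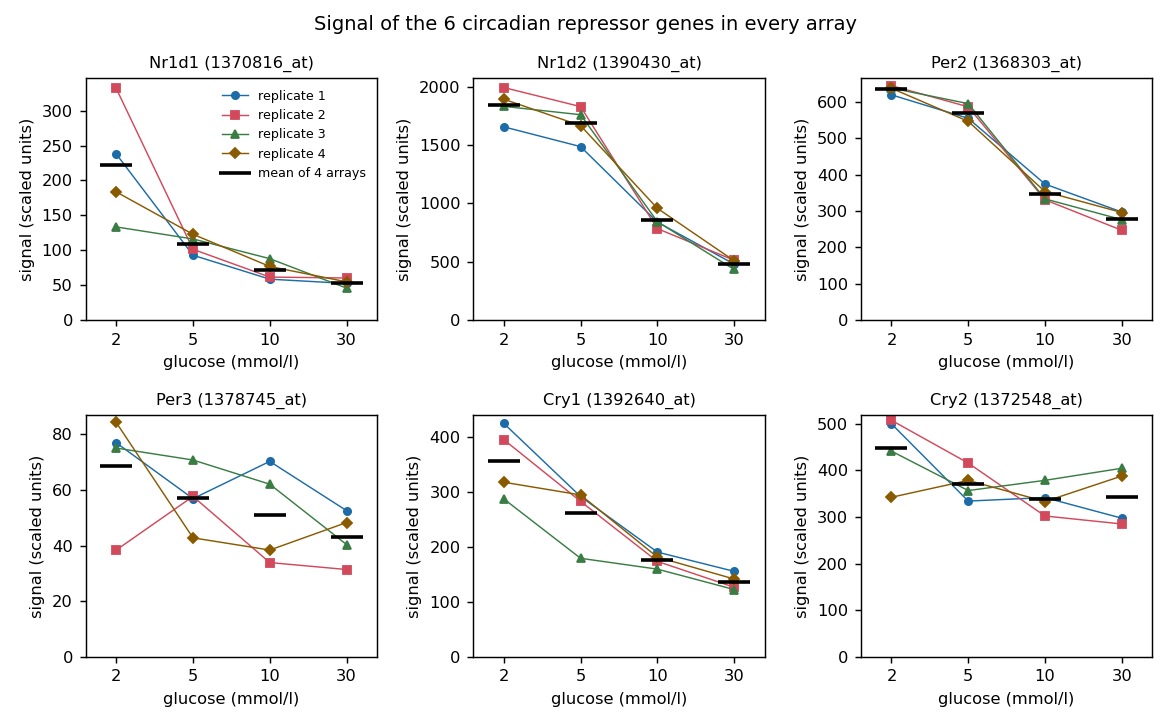
Signal of each repressor gene (y axes, scaled units, linear, from 0) against glucose (x axes, mmol/l, equally spaced), with 1 point per array joined within replicate numbers and a bar at the mean of 4 arrays. Nr1d1, Nr1d2, Per2, Per3 and Cry1 lie lower at 30 than at 2 mmol/l in 4 of 4 replicates, and Cry2 in 3 of 4.

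Among the Period genes, whose proteins carry CRY into the nucleus and hold the activator back, Per2 gave the tightest values. The signals of Per2 (1368303_at) were 619.9, 645.2, 638.5 and 638.0 at 2 mmol/l in replicates 1 to 4, and 555.3, 587.0, 595.8 and 547.0 at 5 mmol/l. They were 374.4, 331.1, 333.6 and 353.7 at 10 mmol/l, and 297.4, 247.2, 276.4 and 296.1 at 30 mmol/l. All 4 groups of Per2 were apart from their neighbours, the only gene of the 6 for which this held at every step. The means were 635.4 ± 10.8, 571.3 ± 23.8, 348.2 ± 20.2 and 279.3 ± 23.4 (SD, n = 4). The difference of Per2 between 30 and 2 mmol/l was -1.19 ± 0.078 (SE) on the log2 scale, a fold of 2.28, and 60.1% of that lay between 5 and 10 mmol/l, 12.97% before and 26.9% after it. The second Per2 probe set, 1378560_at, was too dim to be tested, with signals between 6.2 and 52.2 in no order of concentration (means 14.7, 22.6, 21.7 and 11.1).

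Per3 (1378745_at) was dim and varied from array to array. Its signals were 77.0, 38.4, 75.1 and 84.3 at 2 mmol/l, and 56.9, 57.7, 70.8 and 42.8 at 5 mmol/l, in replicates 1 to 4. They were 70.3, 33.9, 62.1 and 38.4 at 10 mmol/l, and 52.6, 31.4, 40.4 and 48.3 at 30 mmol/l. No pair of Per3 groups was apart. The means of 68.7 ± 20.6, 57.1 ± 11.4, 51.2 ± 17.8 and 43.2 ± 9.34 (SD, n = 4) went down in order, and the log2 difference between 30 and 2 mmol/l was -0.63 ± 0.28 (SE). Within replicate numbers Per3 was lower at 30 than at 2 mmol/l in 4 of 4, by folds of 1.22 to 1.86, but it went down at every step in 1 of 4. The second Per3 probe set, 1388239_at, was not tested, with signals of 1.8 to 23.6. Per1, the remaining Period gene, is not one of the 6 and was also too dim, with means of 30.7 ± 13.7, 16.7 ± 15.7, 24.8 ± 13.3 and 16.4 ± 12.3.

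The cryptochromes, the repressors that bind the activator directly, differed in size of change. Cry1 (1392640_at) had signals of 424.6, 395.0, 287.2 and 317.6 at 2 mmol/l and 291.6, 282.8, 179.2 and 294.5 at 5 mmol/l in replicates 1 to 4. At 10 mmol/l Cry1 was at 190.5, 173.6, 159.5 and 181.4, and at 30 mmol/l at 155.5, 126.6, 122.4 and 141.5. Replicate 3 was the lowest at each concentration. Because of it the Cry1 groups at 2 and 5 mmol/l and at 5 and 10 mmol/l overlapped, yet within replicates Cry1 went down at every step in 4 of 4. The means were 356.1 ± 64.4, 262.0 ± 55.4, 176.3 ± 13.1 and 136.5 ± 15.1 (SD, n = 4), and the groups at 10 and 30 mmol/l were apart. The difference of Cry1 between 30 and 2 mmol/l was -1.37 ± 0.16 (SE) on the log2 scale, a fold of 2.59, spread over the 3 steps as 33.1%, 39.8% and 27.1%.

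Cry2 (1372548_at) had the smallest difference of the 6. It stood at 499.9, 507.4, 441.3 and 342.3 at 2 mmol/l, and at 334.1, 415.7, 356.7 and 378.5 at 5 mmol/l, in replicates 1 to 4. Its signals at 10 mmol/l were 341.6, 302.1, 378.6 and 333.1, and at 30 mmol/l 297.4, 285.0, 404.5 and 387.8. Every pair of neighbouring groups overlapped, and replicate 4 was higher at 30 than at 2 mmol/l. The means were 447.7 ± 76.2, 371.3 ± 34.7, 338.9 ± 31.5 and 343.7 ± 61.2 (SD, n = 4), and the log2 difference between 30 and 2 mmol/l was -0.38 ± 0.14 (SE). The fold between 2 and 30 mmol/l within replicates ran from 0.883 to 1.78. The second Cry2 probe set, 1369446_at, had means of 169.8 ± 57.8, 125.7 ± 28.8, 136.7 ± 21.9 and 108.6 ± 21.3 and a log2 difference of -0.61 ± 0.21, and it was higher at 10 than at 5 mmol/l in 4 of 4 replicates.

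**Figure D2:**
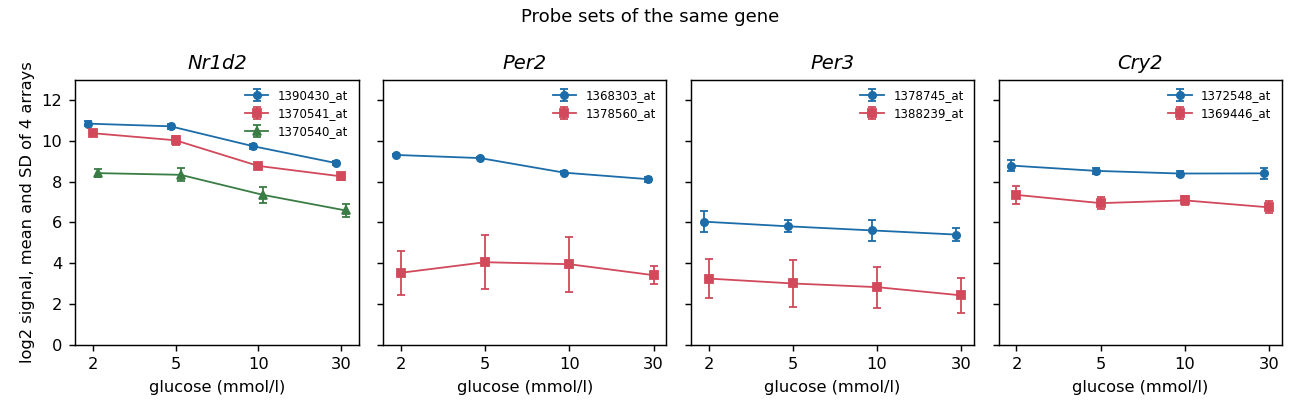
Mean log2 signal (y axis) with the SD of 4 arrays as bars, against glucose (x axis, mmol/l), for the 4 genes with more than 1 probe set, 1 line per probe set. The 3 Nr1d2 probe sets go down together, and the dim probe sets of Per2 (1378560_at) and Per3 (1388239_at) stay low with wide bars.

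Set side by side, the group means of the genes differed in how the change was spread over the steps. The step from 2 to 5 mmol/l was -0.96 ± 0.22 (SE) for Nr1d1 and -0.45 ± 0.16 for Cry1 on the log2 scale, against -0.13 ± 0.086 for Nr1d2 and -0.15 ± 0.078 for Per2. From 5 to 10 mmol/l Nr1d2 came first with -0.98, then Per2 with -0.72, Nr1d1 with -0.62 and Cry1 with -0.55, and Per3 and Cry2 were at -0.20 and -0.13. From 10 to 30 mmol/l Nr1d2 was at -0.82 and the values of Nr1d1, Cry1, Per2 and Per3 lay between -0.40 and -0.20, with Cry2 at 0.01. These differences between genes were not tested, because the same values chose the genes.

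The groups of arrays were fully apart, with the higher concentration lower, for 2 of the 6 genes between 2 and 5 mmol/l (Nr1d1 and Per2), where 4.75% of all tested probe sets were. Between 5 and 10 mmol/l this held for 3 (Nr1d1, Nr1d2 and Per2; 12.1% of all), between 10 and 30 mmol/l for 3 (Nr1d2, Per2 and Cry1; 6.74%), and between 2 and 30 mmol/l for 4 (all but Per3 and Cry2; 19%). The means went down at each of the 3 steps for 5 of the 6 genes, as they did for 12.5% of all tested probe sets. The median log2 difference of the 6 genes was -0.24, -0.58 and -0.35 over the successive steps and -1.28 between 30 and 2 mmol/l, and that of all tested probe sets was -0.02, 0.02, -0.04 and -0.03. The genes were chosen by these values, so nothing follows from the comparison with the background.

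**Figure D3:**
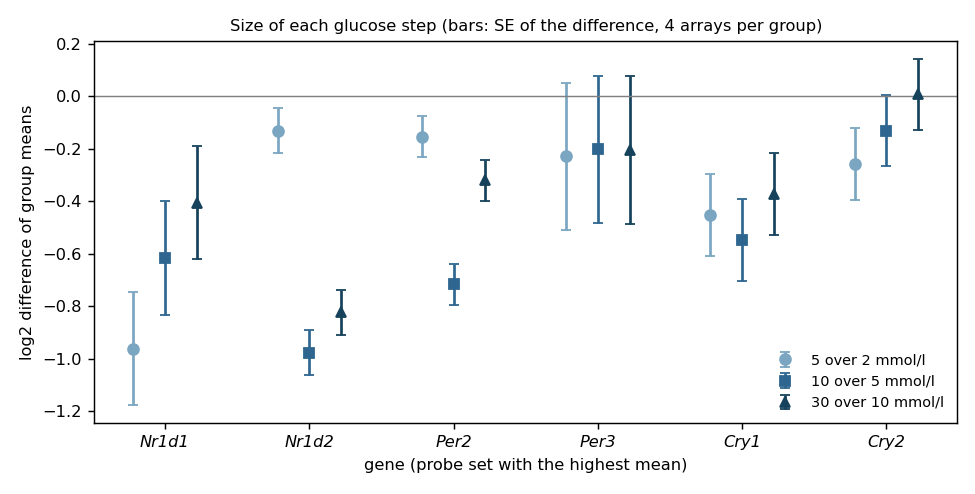
Log2 difference of group means (y axis) for each glucose step and each repressor gene (x axis), with limma's moderated SE of the difference as bars, 4 arrays per group. Nr1d1 has its largest difference from 2 to 5 mmol/l (-0.96), Nr1d2 and Per2 theirs from 5 to 10 mmol/l (-0.98 and -0.72), and the Cry2 point from 10 to 30 mmol/l lies at 0.01.

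Whole islets were measured, so fewer cells of a type and less RNA per cell cannot be told apart. The summed signal of 6 beta cell markers was 23940 to 28483 at 2 mmol/l, 28093 to 33999 at 5, 36187 to 47642 at 10 and 35196 to 42197 at 30 mmol/l. Of the 6 markers 4 were called higher and 1 lower at 30 than at 2 mmol/l (limma, adjusted p under 0.05), against 16.3% and 20.6% of all tested probe sets. The 2 alpha cell markers with a probe set had summed signals of 7114 to 9606 at 2 mmol/l, 9077 to 11472 at 5, 10300 to 13808 at 10 and 10244 to 11970 at 30 mmol/l. For the 2 delta cell markers the sums were 5367 to 6308, 6660 to 7187, 8245 to 9423 and 7638 to 8614. Of the 2 alpha and of the 2 delta cell markers, 1 each was called higher at 30 than at 2 mmol/l, and 0 were called lower. The 4 stellate cell and fibroblast markers ran from 750 to 2357 and gave no call in any contrast, with 0 below an unadjusted p of 0.05. No marker was at 0 in any array. The median sums of the beta, alpha and delta cell markers were thus higher at 5 than at 2 and at 10 than at 5 mmol/l, where the repressors' means were lower, but lower at 30 than at 10 mmol/l. Their part in the result was not tested.

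The one comparison that did not use glucose was between the 4 replicate numbers, each of which is taken as 1 islet preparation and was 1 run of the fluidics station, so the preparation and the run cannot be told apart. With concentration in the model, limma's F-test of the replicate numbers called 1 of the 6 genes, Cry1 (adjusted p = 0.0204), beside 23.2% of all tested probe sets. The mean log2 deviation of Cry1 from its concentration means was 0.19, 0.05, -0.28 and 0.04 in replicates 1 to 4. The call rests on replicate 3, the low one at each concentration. Without its array at 5 mmol/l the adjusted p of Cry1 was 0.100, and without its array at 2 mmol/l 0.0627.

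The other 5 genes were not called different between preparations. Their adjusted p in limma's F-test was 0.812 for Per2, 0.791 for Cry2, 0.71 for Nr1d1, 0.266 for Nr1d2 and 0.0841 for Per3. Per2 had the smallest range between the mean deviations of the replicates, 0.077 on the log2 scale, and Per3 the widest, 0.70, with replicate 2 at -0.42. Without the array at 5 mmol/l replicate 2, Per3 had an adjusted p of 0.0284. Probe sets of 1 gene did not always give the same answer. The dimmer Nr1d2 probe set 1370540_at was called (adjusted p = 0.00826, replicate 2 at 0.35 and replicate 3 at -0.29), as was 1369446_at of Cry2 (adjusted p = 0.00462, replicate 2 at 0.41 and replicate 4 at -0.27), while 1370541_at of Nr1d2 was not (adjusted p = 0.697).

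**Figure D4:**
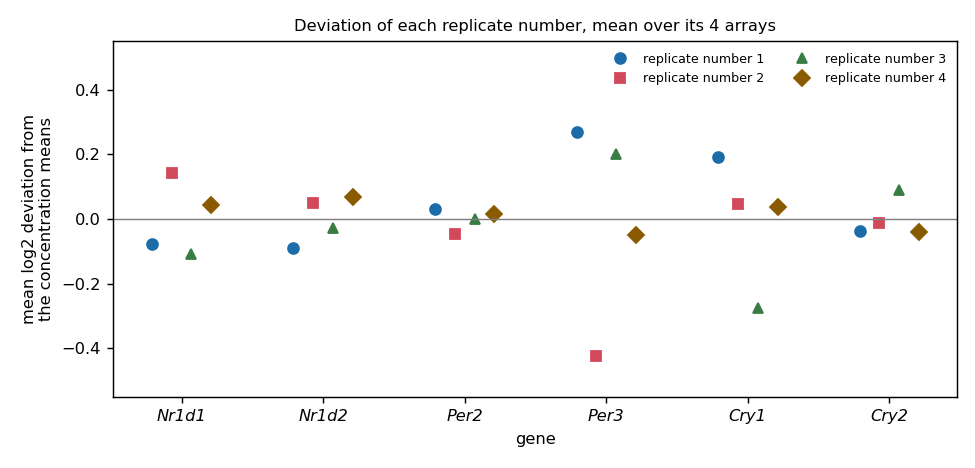
Mean log2 deviation from the concentration means (y axis) for each replicate number, averaged over its 4 arrays, by gene (x axis). The Per2 points lie within 0.077 of each other, whereas replicate 3 of Cry1 is at -0.28 and replicate 2 of Per3 at -0.42.

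The spread among arrays of one concentration differed widely between the genes. The pooled SD of Per2 was 0.081 on the log2 scale, at percentile 2.01 of the tested probe sets, and that of Nr1d2 0.12, at percentile 10.7. The median over all tested probe sets was 0.23, close to Cry2 (0.21) and Cry1 (0.24). Nr1d1 and Per3 were noisier, with 0.33 and 0.43, at percentiles 74.3 and 85.4. By mean level Nr1d1 and Per3 were also the dimmest of the 6, at percentiles 64.1 and 53.4 of all probe sets against 96.3 for Nr1d2 and 88.8 for Per2.

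The genes whose profile over the 16 arrays was closest to each repressor were found by the root mean square difference (RMS) of mean-centred log2 signals among 10222 other tested genes. For Per2 they were the linker histone gene H1f2 (RMS 0.10), the centrosomal gene Cep120 (0.11) and the F-box gene Fbxl4 (0.11), against an RMS of 0.50 of Per2 around its own mean. H1f2 had means of 4228 ± 117, 3996 ± 96.5, 2652 ± 269 and 1819 ± 232 (SD, n = 4) in order of concentration. After the concentration means were subtracted H1f2 was the second closest gene to Per2, with an RMS of 0.056, behind Ythdf3 with 0.050. The RMS of Per2 around its own mean was then only 0.071, so these distances show little shared variation beyond the concentrations.

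For Nr1d2 the closest genes were Stau2 (RMS 0.17), which encodes a double-stranded RNA-binding protein, the autophagy gene Atg10 (0.19) and Rnf227 (0.20), against 0.79 of its own. Stau2 had means of 892.8 ± 84.3, 878.9 ± 61.3, 405.3 ± 26.7 and 280.5 ± 21.7, so that its means at 2 and 5 mmol/l differed by less than the SD of either group. Nr1d1 had no neighbour as close. Its nearest were the growth factor gene Bmp2 (0.32), LOC100911534 (0.33) and the corepressor gene Tle3 (0.34), against 0.80 of its own, and Bmp2 went from 58.2 ± 12.3 at 2 to 19.7 ± 4.45 at 30 mmol/l.

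For Cry1 the nearest genes were Ctnnd2 (RMS 0.19), which encodes a catenin, Rcl1 (0.19), which acts in ribosomal RNA processing, and Rragc (0.20), a GTPase of amino acid sensing, against 0.56 of its own. Cry2, with 0.24 of its own, was nearest to Fancl (0.12), Gabpa (0.15) and Tom1 (0.15), and Per3, with 0.44, to Iqcb1 (0.21), Rbm5 (0.23) and Usp40 (0.26). None of these was another repressor of the 6. Among the 6 the closest pair by RMS was Per2 and Cry1 (0.24), followed by Nr1d2 and Per2 (0.33) and Nr1d1 and Cry1 (0.39), and Nr1d1 and Nr1d2 stood 0.43 apart. By rank among all tested genes the order was reversed. Cry1 was at rank 16 for Nr1d1, Per2 at rank 47 for Nr1d2 and Cry1 at rank 298 for Per2. These distances describe 16 arrays that share the same 4 groups, and a gene that varies little is near many others.

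Beyond the 6, a list of 34 other genes of the clock was followed, of which 30 had a probe set of their own and 25 were tested. These genes were tested across glucose with limma. The list was written with earlier results of these data known, so its counts beside the shares of all probe sets are a description and no independent test. Between 2 and 30 mmol/l 12 of the 25 fell and 5 rose, against 20.6% and 16.3% of all tested probe sets, and their median log2 difference was -0.30. By the F-test over the 4 concentrations 17 of 25 were called, against 41.8% of all. Between 2 and 5 mmol/l 2 fell (0.94% of all) and 0 rose (1.66% of all), with 7 lower and 1 higher at an unadjusted p under 0.05 and 5 lower with the replicate block. From 5 to 10 mmol/l 6 fell (11.1% of all) and 2 rose (10% of all), and with the replicate block 11 and 2. From 10 to 30 mmol/l 1 fell (3.56% of all) and 3 rose (3.26% of all), and with the replicate block 2 and 5. The percentages are from the fit without the block. With the block the calls among all tested probe sets also rose, from 485 to 1839, from 3935 to 5895 and from 1271 to 2754 over the successive steps.

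Of the 4 activators tested, 2 rose and 1 fell between 2 and 30 mmol/l. Bmal1, the target that NR1D proteins silence, had means of 102 ± 22.1, 81.4 ± 16.3, 114 ± 11.7 and 144 ± 15.5 (SD, n = 4) and rose by 0.51 ± 0.17 (SE) on the log2 scale from 2 to 30 mmol/l (adjusted p = 0.0234, limma). Its groups at 2 and 30 mmol/l overlapped, and the call was lost without any 1 of 5 of the 16 arrays, with an adjusted p of up to 0.0931. Npas2, a partner of BMAL1, rose by 0.74 ± 0.18 from 10 to 30 mmol/l (adjusted p = 0.0155; 0.0626 without 30 mmol/l replicate 3). Clock differed by 0.01 ± 0.096 between 30 and 2 mmol/l (adjusted p = 0.935, limma). Rora, the activating receptor at the NR1D sites, fell by 0.82 ± 0.16 (adjusted p = 4.62e-04), although its second probe set, too dim to be tested, had a log2 difference of 1.60 and the mean of both was not called (0.39, adjusted p = 0.39).

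Of the 4 other repressors tested, 3 fell between 2 and 30 mmol/l, and the other, Bhlhe40, had a difference of 0.57 ± 0.22 that was not called (adjusted p = 0.0522, limma) but was called higher with the replicate block (0.0265). Over the alternatives the adjusted p of Bhlhe40 ran from 0.0073 to 0.179. Cipc, an inhibitor of CLOCK, fell by 0.77 ± 0.095 (SE) on the log2 scale (adjusted p = 5.17e-06, limma), Nfil3, which opposes the PAR bZIP factors at D-boxes, by 0.80 ± 0.19 (adjusted p = 0.00261) and Bhlhe41 by 0.47 ± 0.14 (adjusted p = 0.0144; 0.0600 without 2 mmol/l replicate 2). Nfil3 had its lowest mean at 10 mmol/l, with 239 ± 38.5, 150 ± 6.88, 92.6 ± 22.7 and 139 ± 36.9 (SD, n = 4) in order of concentration. Its groups at 2 and 30 mmol/l overlapped. From 10 to 30 mmol/l it differed by 0.59 ± 0.19, not called (adjusted p = 0.0667, limma; 0.0211 with the replicate block). Bhlhe40, which competes for E-boxes, was also lowest at 10 mmol/l. Its means were 88.3 ± 32.3, 58.9 ± 6.19, 34.5 ± 7.98 and 126 ± 18.1 (SD, n = 4), a fall of 0.79 ± 0.22 from 5 to 10 mmol/l (adjusted p = 0.016; 0.0586 without 10 mmol/l replicate 3) and a rise of 1.89 ± 0.22 from 10 to 30 mmol/l (adjusted p = 4.42e-05).

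The 3 PAR bZIP output factors all fell between 2 and 30 mmol/l. Dbp had means of 932 ± 231, 599 ± 91.1, 102 ± 14.01 and 51.1 ± 14.2 (SD, n = 4), a log2 difference of -4.19 ± 0.19 (SE; adjusted p = 5.92e-11, limma), and Hlf and Tef had -1.77 ± 0.14 and -0.72 ± 0.15 (adjusted p = 2.74e-08 and 7.44e-04). Dbp had its largest step from 5 to 10 mmol/l, -2.55, and so did Hlf (-0.95) and Tef (-0.46). By their group means Nr1d2, Per2 and Cry1 also had theirs there. Of the 3 steps it had the most calls among all tested probe sets, 3935, against 485 from 2 to 5 and 1271 from 10 to 30 mmol/l.

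Of the 6 kinases and ubiquitin ligase subunits that act on PER and CRY, 2 fell and 0 rose between 2 and 30 mmol/l. Btrc fell by 0.70 ± 0.11 (SE; adjusted p = 4.07e-05, limma) and Fbxw11 by 0.25 ± 0.083 (adjusted p = 0.0252; 0.201 with median centring, and lost without any 1 of 3 arrays). The probe sets of Btrc went against each other, one of them being higher at 30 mmol/l by 0.55 (adjusted p = 0.0255), and the mean of its probe sets was not called (0.05, adjusted p = 0.778). The casein kinase genes Csnk1d and Csnk1e had differences of 0.04 ± 0.083 and -0.30 ± 0.22 and were not called (adjusted p = 0.75 and 0.321). Of the partners through which NR1D proteins repress, Ncor1 fell by 0.32 ± 0.094 (adjusted p = 0.0125; 0.0539 without 2 mmol/l replicate 3, 0.0728 with median centring) and Hdac3 rose by 0.28 ± 0.10 (adjusted p = 0.0437), a call lost without any 1 of 9 of the 16 arrays.

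Clock-controlled output genes were mixed, with 2 of 6 higher and 2 lower at 30 than at 2 mmol/l. The cell cycle kinase gene Wee1 fell by 1.02 ± 0.14 (SE; adjusted p = 1.57e-05, limma) and the transcription factor gene Klf9 by 0.68 ± 0.16 (adjusted p = 0.00312; 0.365 for the mean of its probe sets). Noct, which encodes the deadenylase-related protein nocturnin, rose by 0.68 ± 0.079 (adjusted p = 2.5e-06) and Klf10 by 1.93 ± 0.13 (adjusted p = 4.92e-09), nearly all of it, 1.78, between 10 and 30 mmol/l. The difference of Alas1, a gene of haem synthesis, was -0.30 ± 0.15 (adjusted p = 0.117; 0.026 with the replicate block).

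**Figure D5:**
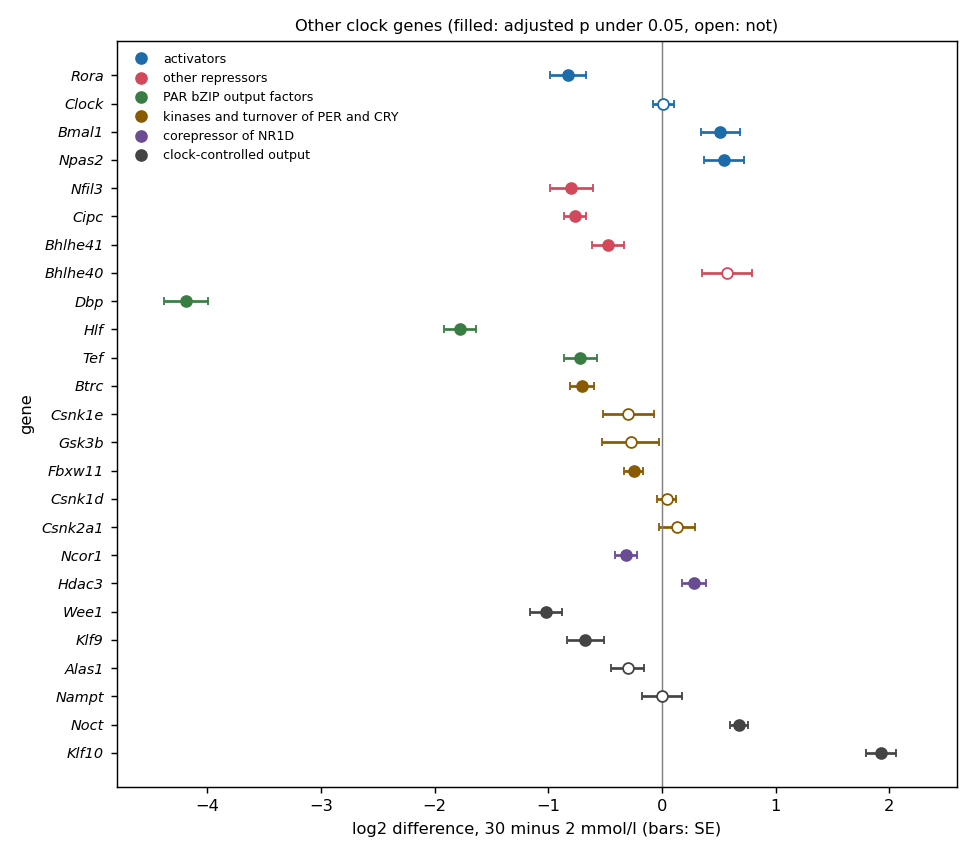
Log2 difference between 30 and 2 mmol/l (x axis, SE as bars, 4 arrays per group) for the 25 tested clock genes other than the 6 repressors, grouped by role (y axis), filled where limma's adjusted p is under 0.05. Dbp lies farthest left at -4.19 and Klf10 farthest right at 1.93, with Bmal1 and Npas2 to the right of 0.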

How the data were processed

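The authors deposited linear signal intensity, made with GCOS per the submitters' processing notes in a version and with settings not given in the sources used here. Scanner text files, deposited as other run information, gave fluidics runs, scan days (3) and chip lots (2). Of 31099 probe sets 57 are controls. Signals under 3.4, the 10th percentile, were set to 3.4 before log2. Annotation, updated by Entrez number to RefSeq, left 20826 probe sets with 1 symbol, 9780 with none and 436 with several, and the brightest of a gene's probe sets with 1 symbol represents it.

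Tests used limma 3.58.1 in R 4.3.3: lmFit over 16 arrays (12 residual degrees of freedom), eBayes with trend, two-sided, Benjamini-Hochberg adjustment over 18625 probe sets, calls at an adjusted p under 0.05. Contrasts were 5 over 2, 10 over 5, 30 over 10 and 30 over 2 mmol/l, with F-tests over concentrations and over replicate numbers. The fit was tested on simulated data. Each SE of a difference is the moderated SE of this fit, which draws on the spread of all tested probe sets. The members and lists were chosen with earlier results of these data known. The naming rule took every probe set of the 6 genes, the listed clock genes and, for each member, the 3 genes of nearest profile. Thra is outside it and was named after its values were seen. Replicate numbers pair the arrays: after subtraction of group means, the 24 pairs with the same number correlated at 0.136 to 0.434 and 72 others at -0.264 to 0.13, so the replicate block (9 residual degrees of freedom) is given where it moves a count by over 1.5 times. Alternatives were blocks for replicate number, scan day and (random) preparation, median centring, quantile normalization, other level filters, an offset of 50 before log2, no trend, an adjusted p under 0.01, averaged probe sets, and each array left out.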

Additional observations from a re-analysis of the deposited data

Results flagged for a closer look

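In 3 of the 44 groups of 4 arrays examined (11 probe sets at 4 concentrations) 1 array stood far from the others by Dixon's test at the 95% level, as chance would do in about 1 group in 20. For Nr1d2 (1370541_at) it was replicate 4 at 30 mmol/l, with a signal of 366, whose gap to the next array was 0.937 of the group's range. For Cry1 (1392640_at) it was replicate 3 at 5 mmol/l, with 179.2 and a gap of 0.899, an array without which the call of Cry1 between preparations was lost. For the dim Per2 probe set 1378560_at it was replicate 2 at 2 mmol/l, with 34.1 and a gap of 0.883.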

How the results depend on the processing

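Of 552 recomputed log2 differences of the 6 genes (24 differences under 23 settings), 542 moved by less than the SD between arrays and 546 kept their sign. Many of them could not move. A block left each difference as it was, and so did leaving out an array of a concentration outside the difference. Averaging probe sets changed nothing for Nr1d1 and Cry1, which have 1 each. These counts are therefore no measure of how stable the differences are. With the probe sets of a gene averaged, which brings in the dim 1378560_at, the Per2 difference from 2 to 5 mmol/l turned from -0.15 to 0.18, and that from 2 to 30 mmol/l became -0.65. Under log2 of the value plus 50 the differences between 30 and 2 mmol/l shrank, to -1.34 for Nr1d1, -1.06 for Per2 and -1.11 for Cry1, as an added constant does.

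For the other clock genes, the replicate block gave 5 calls in place of 2 from 2 to 5 mmol/l, 13 in place of 8 from 5 to 10 mmol/l and 7 in place of 4 from 10 to 30 mmol/l. Among all tested probe sets the block gave 1839 calls in place of 485, 5895 in place of 3935 and 2754 in place of 1271 over the same steps. Between 2 and 30 mmol/l it added Bhlhe40 (adjusted p = 0.0265) and Alas1 (0.026) to the 17 and ended no call. From 2 to 5 mmol/l the calls were 5 with preparation as a random block, 4 with scan day as a block or log2 of the value plus 50, and 1 with quantile normalization, median centring or the mean of probe sets. They were 0 with no level filter (8 lower and 1 higher at an unadjusted p under 0.05), without trend (7 and 1) or at an adjusted p under 0.01, where neither Cipc nor Hlf was called. An adjusted p under 0.01 left 5 calls from 5 to 10 mmol/l and 11 of 17 between 2 and 30 mmol/l. Leaving out 1 array gave 0 to 3, 6 to 10, 3 to 5 and 14 to 18 calls in the 4 contrasts and 16 to 18 by the F-test. Between preparations the calls among the 6 genes were 0 with no level filter (adjusted p of Cry1 0.0522), without trend (0.0513) or under 0.01, where 2 of 6 had an unadjusted p under 0.05. They were 2 with the mean of probe sets (Per2 and Cry1) and 0 to 2 without 1 array. The causes were not tested. Median centring shifted every difference between 30 and 2 mmol/l by about 0.10, and Fbxw11 and Ncor1 were not called there. Scan day could not be fitted beside the replicate numbers, which lie within scan days, and was not run there. With 4 arrays per group, dim probe sets such as those of Per3 limit what can be seen.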
